A study of Homo sapiens with 2 samples.

Results

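The genes described here build, check and move the proteins that enter the secretory pathway at the endoplasmic reticulum (ER). A list of 39 genes was drawn up by function: the sensors of unfolded protein and the transcription factor XBP1, the chaperones of the ER lumen, the enzymes that form and exchange disulfide bonds, the factors that remove misfolded protein for degradation, the translocon through which new chains enter, and the COPII coat of the vesicles that leave. Earlier results of these data were known when the list was made. Members were selected by gene symbol in the platform annotation, and for each gene the probe set brightest on average over the 2 arrays was used. Of the 39 genes, 37 had a probe set annotated to that gene alone, out of 19775 such genes on the array. TXNDC5 and SYVN1 had only a probe set annotated to several genes, and they were given no value. All 37 lay above the floor for dim genes on both arrays (the floor, 4.59, is the median of all probe sets other than controls, and the lowest member value was 5.66), so that the floor removed no member.

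The samples were 1 culture of HCT15 cells, an established human colorectal adenocarcinoma line, that received Cas9 directed at ARID3B and carries the genotype label ARID3B knockout, and 1 culture of HCT15 cells that received a control and carries the genotype label control. RPMI with fetal bovine serum was the medium of both. The labels used here do not say where the guide cuts, what the control cells received in its place, or whether the edited culture was clonal. Total RNA of each was read on 1 Affymetrix array. Since each group had a single array, differences could be neither tested nor checked in a replicate, and they describe these 2 arrays, whose number limits the precision. In bulk RNA, fewer cells with a transcript and less of it per cell cannot be told apart.

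When chains misfold in the ER lumen, HSPA5 leaves the sensors ERN1 (IRE1), EIF2AK3 (PERK) and ATF6. ERN1 splices the XBP1 transcript, ATF6 is cut to a transcription factor in the Golgi, and EIF2AK3 phosphorylates the initiation factor eIF2, which lowers translation in general and raises that of ATF4. XBP1 and ATF6 raise the genes of folding, degradation and export, while ATF4 raises DDIT3 (CHOP) and genes of amino acid supply. Secretory epithelia of the colon, goblet cells above all, rely on this response.

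The ARID3B transcript was the first check on the labels, and it went against the direction that a loss of the transcript would give. Its only probe set stood at 6.09 on the knockout-labelled array, against 5.12 on the control array, which is 0.97 in log2 units or 1.95-fold higher. The signal was dim, under the 75th percentile of probe sets (6.60) on both arrays. With 64 linear units added to the values, the difference was 0.42. Whether this probe set overlaps the edited part was not known, and the ARID3B value alone does not settle the labels. The array is called the knockout-labelled array below, and every direction rests on that label. Of 10 markers of colonic epithelium 8 lay above the floor, at 5.45 to 12.37 on the knockout-labelled array and 5.49 to 12.35 on the control array. The 2 markers under it, KRT20 and CDH17, belong to differentiated enterocytes and intestinal epithelium. Of the fibroblast markers 2 of 5, and of the leukocyte and endothelial markers 3 of 6 measured, reached the floor. COL1A1 stood at 7.12 on the knockout-labelled array, against 6.87 on the control array, while another of its probe sets above the floor differed by -2.47. CD14 stood at 6.54 on the knockout-labelled array, against 6.51 on the control array, PECAM1 at 5.73 on the knockout-labelled array, against 5.55 in the control, and DCN and CD3E lay close to the floor. PTPRC, CDH5, COL3A1 and PDGFRB were under it on both arrays. The part of such markers in the results was not tested.

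The ER genes were shifted upward on the knockout-labelled array by small amounts, and a few stood far out. Of 37 members 27 (73.0%) were above 0 and 10 (27.0%) below, where 52.9% of the 12841 genes compared were above 0 and 45.1% below. Of 51 ribosomal protein genes 45 (88.2%) were above 0, and of 121 other ER genes 71 (58.7%). A majority above 0 was thus not particular to the members. The median difference of the members was 0.16 on the log2 scale, against 0.04 for all compared genes. At least 1.5-fold higher were 3 members (8.11%), namely HERPUD1, SEC31A and SEC24D, against 5.83% of all compared genes, and a share so near that of all genes is no result about the members. At least 2-fold higher were 2 members, HERPUD1 and SEC31A (5.41%), against 1.05% of all. No member was 1.5-fold lower, against 10.5% of all compared genes, and none was 2-fold lower, against 3.79%. Few lower genes were not particular to the members. Among 121 other ER genes 3.31% were 1.5-fold lower and none 2-fold lower, and of 51 ribosomal protein genes none was 1.5-fold lower. All compared genes include 832 that passed the floor on 1 array only, and no member did so. Past 3-fold there was 1 member, HERPUD1, on the upper side, against 0.195% of all genes, and none on the lower side, against 1.04%.

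Most single differences were no larger than the scatter of genes at the same signal. The scaled median absolute deviation (MAD) of the differences, taken over genes in the same of 10 bins of mean expression, ran from 0.26 to 0.44 for the bins that held members. The difference of 10 members (27.0%) lay above that spread on the upper side, against 16.4% of all compared genes. These were HERPUD1, SEC31A, SEC24D, HSPA13, HSPA5, HYOU1, EIF2AK3, P4HB, PDIA4 and PDIA3. On the lower side only DERL2 (2.70% of members) lay beyond it, against 18.4% of all.

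**Figure D1:**
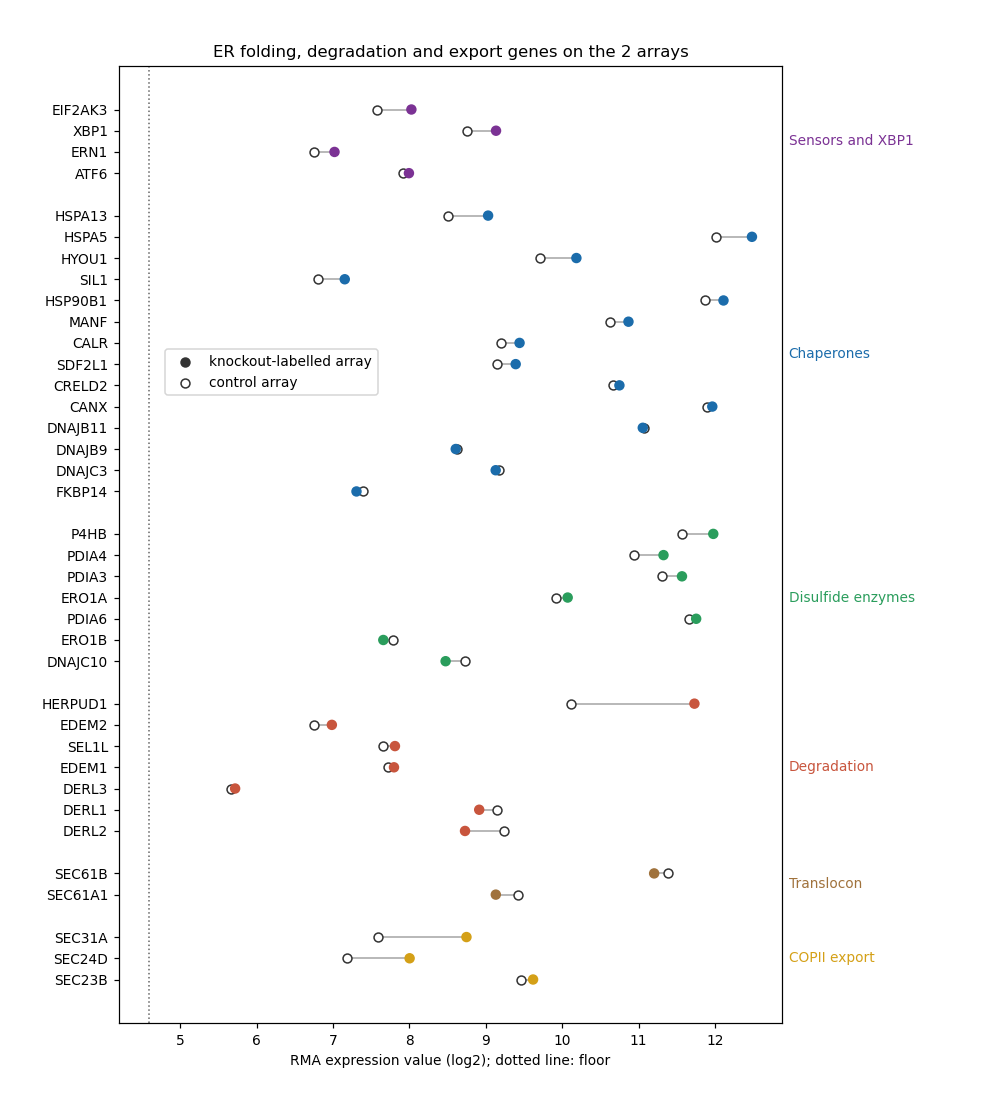
RMA expression values on the log2 scale (x axis) of the 37 members, grouped by role and ordered within a role by difference. Filled points are the knockout-labelled array, open points the control array and the dotted line the floor of 4.59; the widest gaps, with the filled point to the right, are those of HERPUD1, SEC31A and SEC24D, and levels of different genes are not comparable because their probes differ.

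The direction of these differences is relative to the other genes on the array. When the arrays were scaled on cytosolic ribosomal protein genes, 6 members with differences of 0.06 to 0.09 (ATF6, CANX, CRELD2, PDIA6, EDEM1 and DERL3) turned to just below 0, leaving 21 of 37 above 0, beside 42.5% of all genes. Spike-ins with poly-A tails, bacterial transcripts read by 24 probe sets, differed by a mean of -1.19. Scaling on them moved the median of all compared genes to 1.22 and put every member above 0, beside 97.5% of all compared genes. Differences below are plain differences of the deposited values, with nothing subtracted, and their median over all compared genes was 0.04.

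Promoters of these genes are known for a small set of sequence elements, and the windows of several members are shown because they carry the elements by which ATF6, XBP1 and ATF4 are known to act. RefSeq promoter windows of build GRCh38.p14, from 250 bases before to 50 bases after the annotated start, were found for 34 of the 39 genes and for 32 of the 37 with a value. Both strands were searched for the ER stress response element (ERSE, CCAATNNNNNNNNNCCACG), for the second such element (ERSE-II, ATTGGNCCACG), for the unfolded protein response element (UPRE, TGACGTGG) and for the element of ATF4 heterodimers (CARE, TGATGNAA). An ERSE or ERSE-II always contains a CCAAT box, the site of NF-Y, on one strand. ERSE was present in the windows of 8 of the 32 member genes, or 10 of their 43 windows (23.3%), against 27 of all 35116 windows in the table (0.0769%). ERSE-II was present in 3 of 32 member genes, or 3 of 43 windows (6.98%), against 0.0541% of all windows. UPRE was present in 2 member windows (4.65%) and CARE in 1 (2.33%), against 0.729% and 3.62% of all windows. In the 15028 windows of compared genes, the nearer set, ERSE and ERSE-II were each present in 0.113%, UPRE in 0.832% and CARE in 2.07%. A bare CCAAT box was present in 72.1% of the member windows and 34.6% of all. The list was put together from genes of this response, so the abundance of its elements is a description of the list.

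The 250 bases upstream of 6 starts are printed 5′ to 3′ on the strand of the gene, with the matches to these elements in capitals. HERPUD1 (chr16:56931892-56932141, plus strand), the member that differed most, carries a CARE on the opposite strand, ending 169 bases before the start, and an ERSE-II ending 107 bases before it. HSPA5 (chr9:125241344-125241593, minus strand) carries 1 exact ERSE, 48 bases before the start. HYOU1 (chr11:119057206-119057455, minus strand) holds a pair of ERSE-II on the opposite strand, the distal one of which overlaps a UPRE. HSP90B1 (chr12:103930160-103930409, plus strand) has 2 exact ERSE, in opposite orientations. SDF2L1 (chr22:21642052-21642301, plus strand) has 1 ERSE-II. DERL2 (chr17:5486179-5486428, minus strand), the lowest member, is shown beside them, and none of the 4 elements is in its window.
HERPUD1: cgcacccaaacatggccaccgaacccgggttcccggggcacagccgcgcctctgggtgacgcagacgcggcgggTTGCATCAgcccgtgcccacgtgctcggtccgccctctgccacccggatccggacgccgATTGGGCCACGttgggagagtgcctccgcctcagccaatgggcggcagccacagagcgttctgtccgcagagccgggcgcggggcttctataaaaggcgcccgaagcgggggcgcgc
HSPA5: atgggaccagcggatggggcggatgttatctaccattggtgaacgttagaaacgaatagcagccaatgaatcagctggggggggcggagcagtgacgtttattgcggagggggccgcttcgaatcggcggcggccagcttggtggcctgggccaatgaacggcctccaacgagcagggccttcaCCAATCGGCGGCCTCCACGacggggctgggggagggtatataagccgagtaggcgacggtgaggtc
HYOU1: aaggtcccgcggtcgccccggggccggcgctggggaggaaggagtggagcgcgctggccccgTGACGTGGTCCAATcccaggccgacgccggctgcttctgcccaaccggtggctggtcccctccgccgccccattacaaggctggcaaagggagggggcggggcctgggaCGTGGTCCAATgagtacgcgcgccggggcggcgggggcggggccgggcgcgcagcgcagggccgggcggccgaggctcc
HSP90B1: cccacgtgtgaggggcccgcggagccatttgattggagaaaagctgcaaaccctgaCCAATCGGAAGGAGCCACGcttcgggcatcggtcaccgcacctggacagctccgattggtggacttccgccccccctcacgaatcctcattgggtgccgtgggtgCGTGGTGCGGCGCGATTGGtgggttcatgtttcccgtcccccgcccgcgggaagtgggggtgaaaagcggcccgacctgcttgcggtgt
SDF2L1: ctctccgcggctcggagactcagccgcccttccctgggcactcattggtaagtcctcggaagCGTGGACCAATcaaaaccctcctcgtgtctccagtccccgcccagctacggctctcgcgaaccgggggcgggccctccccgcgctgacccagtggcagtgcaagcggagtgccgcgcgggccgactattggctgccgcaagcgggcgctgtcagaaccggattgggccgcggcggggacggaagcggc
DERL2: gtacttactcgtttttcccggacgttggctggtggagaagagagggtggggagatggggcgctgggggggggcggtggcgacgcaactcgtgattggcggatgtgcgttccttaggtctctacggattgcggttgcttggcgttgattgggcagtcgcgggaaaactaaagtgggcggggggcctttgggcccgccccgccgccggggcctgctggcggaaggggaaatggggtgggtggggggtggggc

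The 11 members with an ERSE or ERSE-II in a window differed by a median of 0.24, and 10 of them were above 0, from -0.13 (ERO1B) to 1.62 (HERPUD1). The 21 members with a window but neither element differed by a median of 0.16, and 14 of them were above 0, from -0.51 (DERL2) to 1.16 (SEC31A). The ranges overlap from -0.13 to 1.16. Of the 3 members past 1.5-fold, SEC31A had none of the 4 elements in its 4 windows, and SEC24D was without a window in the table. Exact letters in this window say nothing of elements elsewhere or of variants of them.

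**Figure D2:**
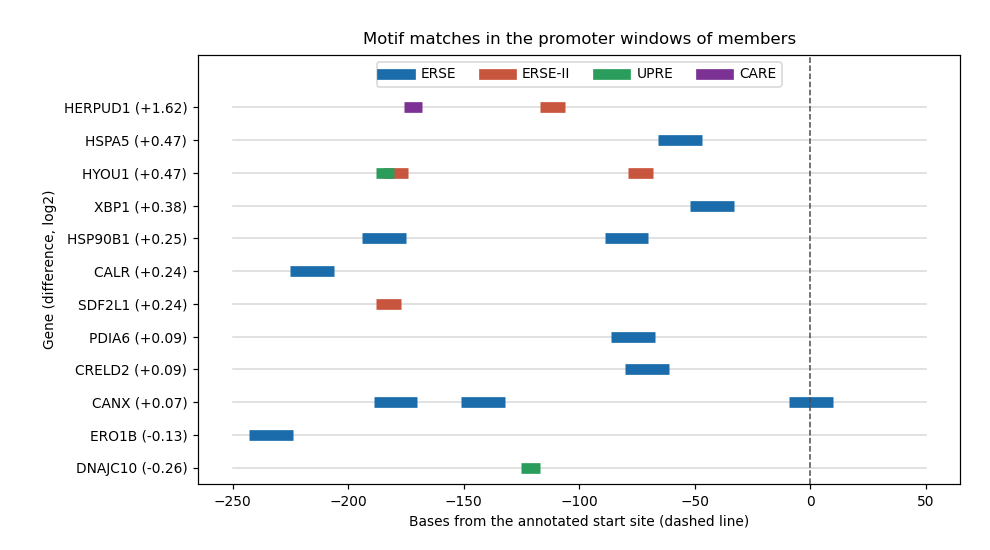
Position of each motif match, in bases from the annotated start (x axis, dashed line at the start), for the 12 members with at least 1 match; the number beside each name is the difference on the log2 scale, and genes run from the highest to the lowest. HERPUD1 alone pairs an ERSE-II with a CARE, and the 3 bars of CANX are 1 ERSE seen from 3 annotated starts.

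All 4 sensors and signal carriers were above 0, beside 52.9% of all compared genes, with a median difference of 0.33. EIF2AK3, the kinase PERK, stood at 8.03 on the knockout-labelled array, against 7.57 on the control array, a difference of 0.45 (1.37-fold) against a spread of 0.39 at that signal. XBP1, the transcription factor whose transcript ERN1 splices, stood at 9.13 on the knockout-labelled array, against 8.75 on the control array (0.38). A probe set value does not separate the spliced from the unspliced XBP1 transcript here. ERN1 stood at 7.02 on the knockout-labelled array, against 6.75 on the control array (0.27), and its other probe sets differed by 0.29 and 0.48. The 3 probe sets of ERN1 therefore lay on the same side.

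ATF6 was the member whose probe sets differed most from each other. Its brightest probe set stood at 7.99 on the knockout-labelled array, against 7.91 on the control array, a difference of 0.08. The next stood at 8.24 on the knockout-labelled array, against 6.77 on the control array, a difference of 1.47 (2.76-fold), and the one after it at 6.65 on the knockout-labelled array, against 5.11 in the control, a difference of 1.54 (2.91-fold). The dimmest stood at 5.66 on the knockout-labelled array, against 5.43 in the control (0.23). All 4 were on the upper side, by 1.06-fold to 2.91-fold, and the annotation used here does not say which parts of the transcript they read. As the mean of its probe sets ATF6 differed by 0.83.

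Of 9 compared genes that process or parallel these sensors, 6 (66.7%) were above 0, 2 below and WFS1 at exactly 0, with a median of 0.17. Among all compared genes 52.9% were above 0. None of the 9 passed 1.5-fold, beside 5.83% of all compared genes on the upper side and 10.5% on the lower. MBTPS2, a protease that cuts ATF6, stood at 8.51 on the knockout-labelled array, against 8.91 on the control array (-0.39). YOD1, a deubiquitinase of ER-associated degradation, differed by 0.30, as did CREB3, a membrane-bound relative of ATF6.

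Genes of the ATF4 and CHOP branch, among them ATF4 itself and the eIF2 subunit EIF2S1, had a median difference of 1.10. Many of them are also known to respond to inputs other than ER stress, such as amino acid shortage. Of 12 compared 11 (91.7%) were above 0, beside 52.9% of all compared genes. At least 1.5-fold higher were 9 (75%), beside 5.83% of all, and at least 2-fold higher were 6 (50%), beside 1.05% of all. This list was chosen with earlier results of these data known, so its shares only describe the genes chosen. DDIT4 stood at 11.70 on the knockout-labelled array, against 7.86 on the control array, DDIT3 at 10.38 on the knockout-labelled array, against 6.99 in the control, and CHAC1 at 8.90 on the knockout-labelled array, against 6.27 in the control.

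Among the chaperones 10 of 14 members (71.4%) were above 0, beside 52.9% of all compared genes, with a median difference of 0.24. None passed 1.5-fold, beside 5.83% of all compared genes on the upper side and 10.5% on the lower. The highest was HSPA13, an ER-associated member of the HSP70 family, which stood at 9.03 on the knockout-labelled array, against 8.50 on the control array (0.53, 1.44-fold). Its other probe set stood at 8.43 on the knockout-labelled array, against 7.56 on the control array (0.87). HSPA5, the central HSP70 of the lumen known as BiP, stood at 12.48 on the knockout-labelled array, against 12.01 on the control array (0.47, 1.39-fold). A dimmer probe set of HSPA5 stood at 7.98 on the knockout-labelled array, against 7.07 on the control array (0.91, 1.88-fold), so both lay on the upper side with an unequal size.

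Both nucleotide exchange factors of HSPA5 among the members were above 0, and the 3 J proteins listed as chaperones were just below it. HYOU1, an HSP110 relative that exchanges its nucleotide, stood at 10.19 on the knockout-labelled array, against 9.72 on the control array (0.47), beyond the spread of 0.26 at that signal. SIL1, another exchange factor, stood at 7.15 on the knockout-labelled array, against 6.81 on the control array (0.35), within the spread of 0.44. The J proteins call HSPA5 to its clients, and here DNAJB11 stood at 11.06 on the knockout-labelled array, against 11.07 on the control array, DNAJB9 at 8.61 on the knockout-labelled array, against 8.62 in the control, and DNAJC3 at 9.13 on the knockout-labelled array, against 9.18 in the control. These 3 differences were -0.01, -0.01 and -0.05, far inside the spread. The dimmer probe sets of DNAJC3 were lower by more, at -0.52, -0.38 and -0.25, while those of DNAJB9 differed by 0.03 and 0.21. J-domain proteins of the ER outside the member list, named here after their values were seen, lay on both sides of 0. DNAJB14 differed by 0.26, SEC63 by 0.13, DNAJC1 by 0.10 and DNAJB12 by -0.23. The probe sets of SEC63 and of DNAJB12 above the floor lay on both sides.

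The remaining chaperones differed little. HSP90B1, the HSP90 of the lumen known as GRP94, stood at 12.11 on the knockout-labelled array, against 11.86 on the control array (0.25). MANF, a small secreted protein of the ER stress response that binds HSPA5, stood at 10.87 on the knockout-labelled array, against 10.62 in the control (0.25), and SDF2L1, which forms a complex with J proteins, at 9.39 on the knockout-labelled array, against 9.15 in the control (0.24). Each of these was within the spread among genes of similar signal. CALR, the lectin chaperone calreticulin, stood at 9.44 on the knockout-labelled array, against 9.20 on the control array (0.24), and its other probe sets differed by 0.30 and 0.42. Its membrane-bound partner CANX stood at 11.97 on the knockout-labelled array, against 11.90 in the control (0.07), and CRELD2, an ER stress-inducible protein, at 10.75 on the knockout-labelled array, against 10.66 in the control (0.09). FKBP14, a prolyl isomerase, was the lowest chaperone at 7.31 on the knockout-labelled array, against 7.40 on the control array (-0.09), and its other probe sets were above 0.

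Of 20 other compared chaperones, isomerases and lectin-cycle enzymes of the ER, 8 (40%) were above 0 and 11 below, with a median of -0.05. Among all compared genes 52.9% were above 0. CLGN, a calnexin relative, was the 1 gene at least 1.5-fold higher (0.69), and SERPINH1 and RCN1 were the 2 at least 1.5-fold lower. These counts are shares of 5% and 10%, close to the 5.83% and 10.5% of all compared genes. CLGN was read by 1 dim probe set, at 5.95 on the knockout-labelled array, against 5.26 on the control array. With 64 linear units added to the values, CLGN differed by 0.30. SERPINH1, the collagen chaperone HSP47, stood at 7.87 on the knockout-labelled array, against 8.67 on the control array (-0.81). RCN1, a calcium-binding protein of the lumen, stood at 9.46 on the knockout-labelled array, against 10.08 in the control (-0.62).

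**Figure D3:**
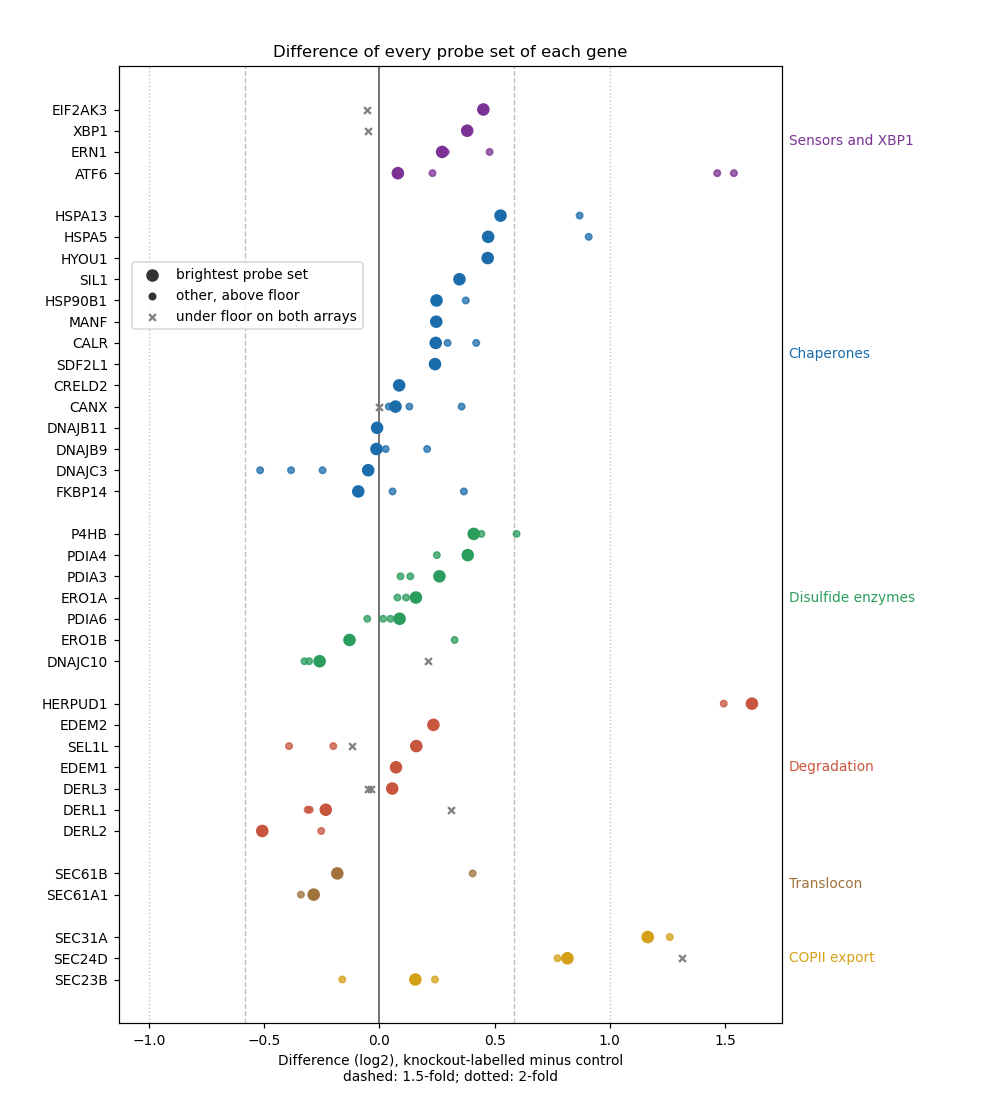
Difference on the log2 scale, knockout-labelled minus control (x axis), of all 92 probe sets of the 37 members. Large points are the brightest probe set, small points other probe sets above the floor, crosses those under it on both arrays, with dashed lines at 1.5-fold and dotted lines at 2-fold; the probe sets of HERPUD1 and SEC31A lie together beyond 2-fold, and those of ATF6 are spread from 0.08 to 1.54.

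The disulfide enzymes lay on both sides of 0, with a median difference of 0.16. Above 0 were 5 of 7 members (71.4%), beside 52.9% of all compared genes. P4HB, the founding isomerase of the family, stood at 11.98 on the knockout-labelled array, against 11.57 on the control array (0.41, 1.33-fold), and its other probe sets differed by 0.60 and 0.44. PDIA4 stood at 11.33 on the knockout-labelled array, against 10.94 on the control array (0.38), and PDIA3, which works on glycoproteins held by calnexin and calreticulin, at 11.57 on the knockout-labelled array, against 11.31 in the control (0.26). All 3 differences exceeded the spread at that signal, for PDIA3 barely (0.261 against 0.255), and its dimmer probe sets differed by 0.09 and 0.13. PDIA6 stood at 11.75 on the knockout-labelled array, against 11.67 on the control array (0.09), with other probe sets from -0.05 to 0.05, all close to 0.

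ERO1A, the oxidase that recharges the isomerases, stood at 10.07 on the knockout-labelled array, against 9.91 on the control array (0.16), and its other probe sets at 0.08 and 0.12 lay close by. Its paralog ERO1B stood at 7.66 on the knockout-labelled array, against 7.79 on the control array (-0.13), with a dimmer probe set at 0.33, so that its direction is not settled. DNAJC10, a reductase with a J domain that opens disulfide bonds before degradation, stood at 8.47 on the knockout-labelled array, against 8.73 on the control array (-0.26). Its other 3 probe sets above the floor differed by -0.25, -0.33 and -0.30. All 4 were thus lower by nearly the same amount, which is within the spread of 0.39 at that signal.

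Of 14 other compared disulfide enzymes, 7 (50%) were above 0, beside 52.9% of all compared genes, and 7 below, with a median of -0.06. None was 1.5-fold higher, beside 5.83% of all compared genes, and 2 (14.3%) were 1.5-fold lower, beside 10.5% of all. SUMF1, which activates sulfatases, stood at 6.56 on the knockout-labelled array, against 7.30 on the control array (-0.74). The membrane-bound thioredoxin relatives TMX4 and TMX3 differed by -0.63 and -0.48.

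HERPUD1 had the largest difference of all members and ranked 24th from the top among the 12841 genes compared. It encodes a membrane protein of the ER with a ubiquitin-like domain, a scaffold of the complex that moves misfolded proteins out for degradation. It stood at 11.73 on the knockout-labelled array, against 10.11 on the control array, a difference of 1.62 (3.07-fold higher). The other probe set, much dimmer, stood at 6.56 on the knockout-labelled array, against 5.07 on the control array (1.49, 2.82-fold), so that both gave nearly the same size. The spread of genes at its signal was 0.26.

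The partners of HERPUD1 in degradation did not differ in the same way. SEL1L, the adaptor of the ubiquitin ligase SYVN1, stood at 7.81 on the knockout-labelled array, against 7.65 on the control array (0.16), with dimmer probe sets at -0.39 and -0.20. Its direction is thus not settled. EDEM1, a protein of mannose trimming that marks glycoproteins for disposal, stood at 7.80 on the knockout-labelled array, against 7.73 in the control (0.07), and EDEM2, the mannosidase that starts the trimming, at 6.98 on the knockout-labelled array, against 6.75 in the control (0.23).

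The derlins, membrane proteins of the retrotranslocation channel, lay on both sides of 0. DERL2 stood at 8.73 on the knockout-labelled array, against 9.24 on the control array (-0.51, 1.42-fold lower), and its other probe set differed by -0.25. DERL1 stood at 8.91 on the knockout-labelled array, against 9.15 on the control array (-0.23), and the other probe sets above the floor differed by -0.31 and -0.30. Every probe set of these 2 genes above the floor was lower, and only the brightest of DERL2 exceeded the spread at its signal. DERL3, a derlin of secretory tissues, stood at 5.72 on the knockout-labelled array, against 5.66 in the control (0.06), near the floor, where its other probe sets lay under it.

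Among 21 other compared degradation factors 12 (57.1%) were above 0, beside 52.9% of all compared genes, and 9 below, with a median of 0.05. None passed 1.5-fold, beside 5.83% of all compared genes on the upper side and 10.5% on the lower. HERPUD2, the paralog of HERPUD1, stood at 8.42 on the knockout-labelled array, against 7.90 on the control array (0.52), and its 3 probe sets were all above 0. MAN1B1, an ER mannosidase, differed by 0.48. UBE2G2, a ubiquitin-conjugating enzyme of this pathway, stood at 8.61 on the knockout-labelled array, against 9.08 on the control array (-0.47), with all 4 probe sets below 0.

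Both translocon members were lower in their brightest probe set. SEC61A1, the pore subunit, stood at 9.13 on the knockout-labelled array, against 9.42 on the control array (-0.28), and its other probe set differed by -0.34. SEC61B, a small subunit, stood at 11.20 on the knockout-labelled array, against 11.39 on the control array (-0.18), and a much dimmer probe set, past the floor only on the knockout-labelled array, differed by 0.41. Neither exceeded the spread at its signal. Of 29 other compared genes of translocation, signal cleavage and glycosylation, 15 (51.7%) were above 0 and 14 below, with a median of 0.00. Among all compared genes 52.9% were above 0. None of the 29 passed 1.5-fold, beside 5.83% of all compared genes on the upper side and 10.5% on the lower. The 3 that differed most were all on the lower side: the translocon partner SEC62 (-0.56), SRP19 of the signal recognition particle (-0.56) and the translocating chain factor TRAM1 (-0.53).

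The COPII coat was the role that stood highest, with a median difference of 0.82. Above 0 were 3 of 3 members, beside 52.9% of all compared genes. Without probe sets marked as matching several transcripts SEC31A had none left, SEC23B turned to -0.16, and the median fell to 0.33, level with that of the sensors (0.33). SEC31A, the subunit of the outer cage, stood at 8.75 on the knockout-labelled array, against 7.58 on the control array, a difference of 1.16 (2.24-fold higher). Its other probe set stood at 7.86 on the knockout-labelled array, against 6.60 on the control array (1.26, 2.40-fold), so that both lay beyond 2-fold. SEC31A ranked 91st from the top among the 12841 genes. SEC24D, a cargo-binding subunit of the inner layer, stood at 8.00 on the knockout-labelled array, against 7.19 on the control array (0.82, 1.76-fold), and another probe set, past the floor only on the knockout-labelled array, differed by 0.77. SEC23B, the partner of SEC24 proteins in the inner layer, stood at 9.62 on the knockout-labelled array, against 9.46 in the control (0.16), with other probe sets at 0.24 and -0.16, so that its direction is not settled.

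Of 28 other compared genes of COPII assembly and cargo capture, 23 (82.1%) were above 0 and 5 below, with a median of 0.22. Among all compared genes 52.9% were above 0. The 2 that were at least 1.5-fold higher (7.14%) were a share close to the 5.83% of all compared genes. None was 1.5-fold lower, beside 10.5% of all. LMAN1, a lectin that carries glycoproteins to the Golgi, stood at 11.61 on the knockout-labelled array, against 10.89 on the control array (0.72, 1.64-fold), with all 3 probe sets above 0. SEC23A stood at 9.88 on the knockout-labelled array, against 9.28 on the control array (0.60), and the Golgi SNARE STX5 at 6.47 on the knockout-labelled array, against 5.89 in the control (0.57). Of the other coat subunits, named after their values were seen, SEC13 differed by 0.57, SEC24A by 0.32, SEC24B by 0.56 and SEC24C by 0.38. SEC31B, counted among the 23, passed the floor only on the knockout-labelled array, at 4.95, against 4.49 on the control array, so that the floor fixed its direction. SAR1A, a GTPase that starts coat assembly, differed by -0.02 in its brightest probe set, but all 3 of its probe sets were below 0, the lowest at -1.08, and their mean was -0.49. Its paralog SAR1B differed by 0.16, with all 5 probe sets above 0.

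**Figure D4:**
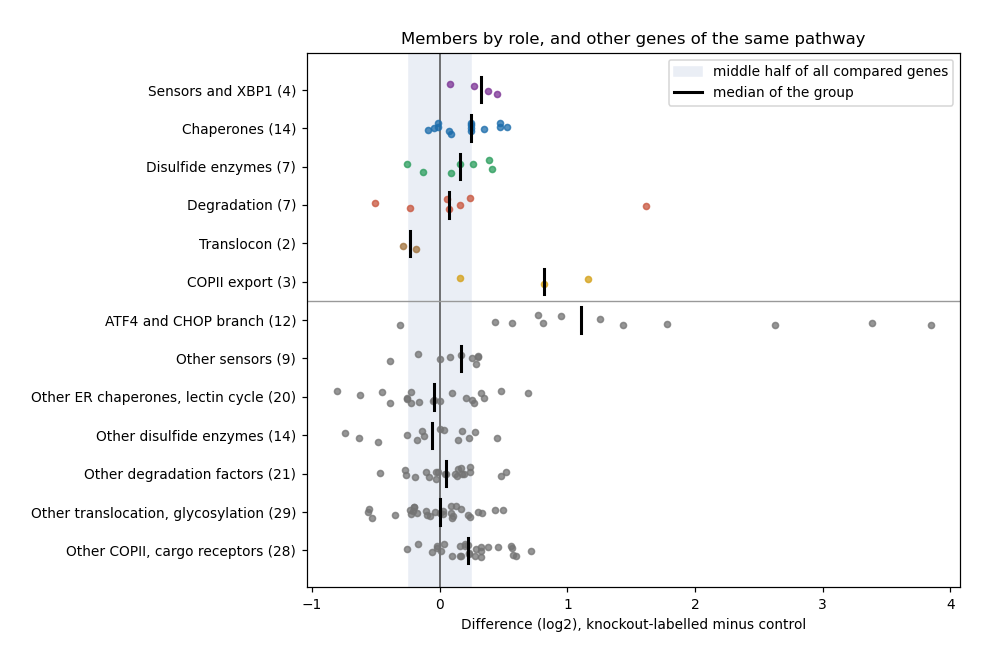
Difference on the log2 scale, knockout-labelled minus control (x axis), of each compared gene, for members by role (coloured, top) and other genes of the same pathway (grey, bottom), with the number of genes in brackets. Black bars are medians and the shaded band is the interquartile range of all compared genes; the COPII members and the ATF4 and CHOP branch have medians of 0.82 and 1.10, and the other chaperones, disulfide enzymes, degradation factors and translocation genes have medians between -0.06 and 0.05.

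The other ER genes, taken as a single group, were nearer to the background. In all, 121 other compared genes of chaperone, disulfide, degradation, translocation, export and sensor function had a median of 0.09, with 71 above 0 and 48 below. At least 1.5-fold higher were 3 of them (2.48%) and 4 were 1.5-fold lower (3.31%), beside 5.83% and 10.5% of all compared genes. The members' median was 0.16, and no test of the difference was possible.

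The probe sets of a gene were read on the same 2 arrays, so their agreement bears on the probes and not on the spread between cultures. Of the 92 probe sets of the 37 members, 83 reached the floor on at least 1 array. For 2 of these, 1 each of SEC24D and SEC61B, only the knockout-labelled array reached it, which fixed their direction, and they are left out of the counts that follow. Of the other 81 probe sets 57 were above 0 and 24 below. Among 24 members with 2 or more of them, 18 had all on the same side, 13 on the upper and 5 on the lower side. The other 6 (DNAJB9, FKBP14, PDIA6, ERO1B, SEL1L and SEC23B) had probe sets on both sides. Across the 24 genes, which share both arrays and are not replicates, the differences of the brightest and the next probe set correlated at r = 0.766. The median gap between these differences was 0.12, and the largest, of ATF6, was 1.39.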

How the data were processed

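Gene expression was measured on 1 array of ARID3B knockout-labelled and 1 array of control HCT15 cells. Values were deposited on the log2 scale, and the submitters' processing notes name RMA without a version. This method subtracts background, quantile-normalises the arrays and summarises each probe set, so that a difference is relative to the other genes. It compresses differences of dim probe sets. Of 54675 probe sets, 62 were controls, 41091 had 1 gene symbol in the platform annotation, 1801 several and 11721 none. Symbols of all 92 member probe sets were the same in a RefSeq table of GRCh38.p14.

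From these values, the probe set with the highest mean represented each gene, and 12841 of 19775 genes with a value at or above the floor of 4.59 on at least 1 array were compared, as knockout-labelled minus control. Named genes were all members, ARID3B, and up to 3 genes with the largest difference in each list of other ER genes. WFS1, other J proteins, coat subunits, SAR1A, SAR1B and markers were named after their values were seen. Members and lists were chosen with earlier results of these data known. With 1 array per group there is no SD, p-value or test, and array data give no depth. Alternatives tried were dropping the floor or raising it to the 75th percentile, averaged probe sets, removal of probe sets marked as matching several transcripts, a loess trend (span 0.3), median, ribosomal and spike-in scaling, 64 added linear units and a 3-fold threshold. The procedure was run on simulated arrays with planted differences larger than those of all members but HERPUD1, which does not bear on smaller differences. Python 3.11.15, numpy 2.4.6, pandas 2.3.3, statsmodels 0.14.6 and matplotlib 3.10.9 were used.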

Additional observations from a re-analysis of the deposited data

How the results depend on the processing

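With 1 array per group no replicate could be left out, and no paired analysis was possible because each group has 1 sample and no test. Dropping the floor, raising it to the 75th percentile (36 members), removing the loess trend and centring on medians changed no member's sign and none of the counts past 1.5-fold and 2-fold. A floor only decides which genes are compared, so moving it could turn no sign, and dropping it could change no member. Centring could turn no sign either, since the array medians (4.589 and 4.591) lay closer together than the 2 values of any member. With the mean of all probe sets, 6 members were at least 1.5-fold higher in place of 3, with ATF6 (0.83), HSPA13 (0.70) and HSPA5 (0.69) added. The share of all genes past 1.5-fold was not counted under this setting. Above 0 were 29 of 37 members, beside 51.9% of all genes, and 6 members changed sign, with reported differences from -0.18 to 0.16. Without probe sets marked as matching several transcripts 30 members were left, 1 of them (HERPUD1, 1.49 in its dimmer probe set) at least 2-fold higher, SEC31A having no probe set left, 3 changed sign, and the median of the COPII members was 0.33 in place of 0.82. Adding 64 linear units, or a 3-fold threshold, left 1 member, HERPUD1, past the higher threshold. Ribosomal scaling put 1 member, DERL2, at least 1.5-fold lower (-0.61). Spike-in scaling raised the share of members above 0 to 100%, beside 97.5% of all compared genes, and their median to 1.35, beside 1.22 for all. The counts of members at least 1.5-fold and 2-fold higher rose to 37 and 33, and the shares of all genes past these thresholds were not counted under this scaling. It turned all 10 lower members to the upper side, as well as SERPINH1 (0.38), RCN1 (0.56), SUMF1 (0.45), TMX4 (0.56) and the 6 other lower genes among the up to 3 named per list, which came to 0.63 (SEC62) to 0.79 (MBTPS2). Every difference moves by the same amount under that scaling, by construction.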
